A study of Mus musculus with 6 samples.

Results

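Enzymes that add methyl groups to histones (writers) or remove them (erasers) were followed in macrophages sorted from mouse heart allografts. The members were chosen by gene name: every symbol that begins with Kdm, Kmt or Setd and a digit, and 10 further writers or subunits listed singly. Of those 10, 7 had a value and 3 were not analysed here, which left 40 genes of the 22180 genes with a value, 23 on the writers' side and 17 erasers. One further eraser, Kdm2b, lay only on a probe set shared with another gene and was not used. Hearts of BALB/c mice had been grafted into fully mismatched C57BL/6 recipients, and macrophages were sorted from the grafts by flow cytometry 6 days later. Recipients of 3 samples had been given mTORi-HDL, a high-density lipoprotein particle loaded with an inhibitor of the kinase mTOR, at 5 mg/kg on days 0, 2 and 5. Recipients of the other 3 samples had no treatment and rejected the graft. No group had been given the particle without the inhibitor, so the carrier and its cargo cannot be told apart, and the labels give no age, sex or sort markers. Nothing in the labels says that the 3 samples of a group came from separate animals, so p-values measure the spread between these samples, which may be partly technical.

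Methylation of histone lysines marks genes as active or silent. Methylation of lysine 4 of histone H3 (H3K4) is found at active promoters and enhancers, that of H3K36 and H3K79 along transcribed genes, and that of H3K9 and H3K27 in silenced chromatin. SET-domain enzymes write most of these marks from S-adenosylmethionine, and the KDM families erase them, with flavin in the KDM1 pair and with iron and 2-oxoglutarate in the JmjC enzymes. In macrophages H3K4 methylation at inflammatory genes is known from trained immunity, a lasting heightened response that depends on mTOR signalling.

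Values are log2 levels of 1 probe set per gene, and levels of different genes were not compared, since probe sets differ in brightness. One array, mTORi-HDL 1, stood apart: over all probe sets it correlated with the others at r of 0.708 to 0.741, against 0.892 to 0.912 among those 5, and the SD over its probe sets was 1.68, where the others had 2.04 to 2.09. Regressed on the mean of the other 5 arrays over all genes, it had a slope of 0.583, which reflects both the lower correlation and the narrower spread. Fold changes of the 40 members are therefore given over all arrays and without it. Of the macrophage markers listed, 19 were measured, and their summed level (log2 of the sum of linear values) was 12.13 to 12.52 on untreated and 12.29 to 13.49 on treated arrays. T cell markers were also present, at a summed level of 13.63 to 13.88 over 16 genes on untreated and 11.41 to 12.88 on treated arrays. In sorted bulk samples fewer cells of a type and less RNA per cell cannot be told apart.

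Most writers and erasers had lower means in treated samples, and most of that difference came from 1 array. Over all 6 arrays 31 of 40 members had a lower mean in treated samples, where 41.8% of all genes did, and the median log2 fold change (treated minus untreated) was -0.31 against 0.08 over all genes. Without mTORi-HDL 1 it was 22 of 40, beside 53.4% of all genes, and the median was -0.04 against -0.03. Array by array, the members' median distance from the untreated mean was -0.89 on the first treated array, -0.08 on the second and 0.02 on the third, where all genes gave 0.27, -0.03 and -0.03. Of the 40, 17 had a mean difference of the opposite sign when that array was left out (42.5%, beside 29.1% of all genes). No member passed an adjusted p of 0.05 in limma's test over all genes, with or without mTORi-HDL 1, and neither did any of the 22180 genes (0% in both). The smallest adjusted p among members was 0.890 over all arrays, a value that Ezh2 shared with many other members. Without that array it was 0.451, for Ezh2 alone, which had the smallest unadjusted p in both settings.

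**Figure D1:**
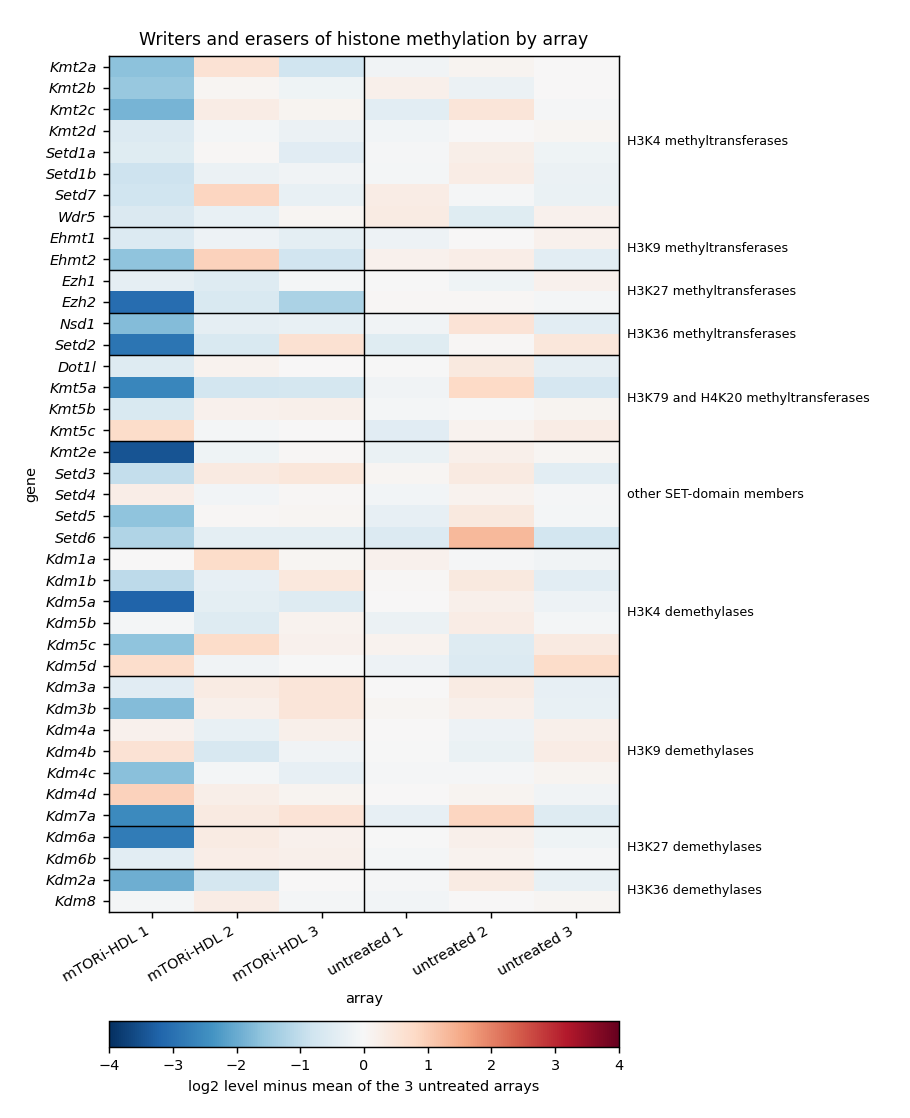
Heat map of 40 genes (rows, by role) on 6 arrays (columns). Colour gives the log2 level minus the mean of the 3 untreated arrays; the blue column is mTORi-HDL 1, which had the lowest of the 6 values for 30 members, while members on mTORi-HDL 2 and 3 lie between -1.26 (Ezh2) and 0.93 (Ehmt2).

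At an unadjusted p under 0.05, 1 of 40 members was lower (Ezh2) and 0 were higher, where 3.07% of all genes were lower and 1.57% higher. All 3 treated arrays lay below all 3 untreated arrays for 5 members (12.5%), namely Ezh2, Kdm5a, Kmt5a, Kdm4c and Ehmt1, and above them for 0. Over all genes these shares were 5.53% lower and 5.37% higher. Without mTORi-HDL 1 the same 5 did not overlap, as they could not by construction, and this share of 12.5% equalled the 12.5% of all genes that lay lower. Setd3, Kdm3a, Kmt5b and Kdm6b (10%) then lay higher without overlap, beside 9.75% of all genes. At an unadjusted p under 0.05 there was again 1 lower member, Ezh2, and 0 higher, beside 3.51% and 3.47% of all genes. Counts of members were near the share of all genes once that array was left out.

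Ezh2, the catalytic subunit of Polycomb repressive complex 2 (PRC2) that methylates H3K27, was the member with the largest difference. Its log2 level was 7.49, 7.48 and 7.35 on the untreated arrays, and 4.41, 6.82 and 6.19 on mTORi-HDL 1, 2 and 3. Untreated arrays were nearly level and every treated array lay below them. Treated samples averaged 5.81 ± 1.25 and untreated ones 7.44 ± 0.08 (SD, n = 3 each), a log2 fold change of -1.64 ± 0.58 (SE; limma, unadjusted p = 0.0242, adjusted p = 0.890). Without mTORi-HDL 1 it was -0.94 ± 0.26 (unadjusted p = 0.00909, adjusted p = 0.451), or a level 1.92-fold lower, with a 95% interval of -1.56 to -0.32. Ezh1, the paralogue that also methylates H3K27 and is known from non-dividing cells, read 6.25, 6.11 and 6.45 on untreated and 5.92, 5.76 and 6.20 on treated arrays. The groups overlapped, and its log2 fold change was -0.31 ± 0.26 (adjusted p = 0.890) and, without mTORi-HDL 1, -0.29 ± 0.24 (adjusted p = 0.898). The log2 ratio of Ezh2 to Ezh1 within an array was 1.24, 1.38 and 0.90 in untreated and -1.51, 1.07 and -0.01 in treated samples. These ratios overlapped, and their difference of -1.33 did not pass an exact two-sided permutation test over arrays (p = 0.2; Benjamini-Hochberg adjusted over 7 pairs of paralogues, p = 0.7), whose smallest possible p is 0.1 with 3 against 3. Without mTORi-HDL 1 the difference was -0.65 (exact permutation p = 0.3, adjusted p = 0.9).

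The starts of Ezh2, its paralogue Ezh1 and Kmt5a, the other writer known from dividing cells, are shown for the H3K27 pair and for the writers with the largest differences. Kdm4c and Ehmt1, also lower on every treated array, had windows of 300 bases with none of the letters searched, and Kdm5a had no window. Each stretch runs from 180 bases before to 20 bases after the RefSeq start (GRCm38.p6), 5′ to 3′ on the gene's own strand. Capitals mark matches, on either strand, to E2F-type letters (TTTCCCGC or TTTGGCGC or TTTCGCGC), to CHR letters (TTTGAA or TTCGAA) or to CCAAT. The motifs do not share matched letters in these stretches. For Kmt5a the first of 3 starts by coordinate is given.
Ezh2, chr6:47595011-47595210, minus strand: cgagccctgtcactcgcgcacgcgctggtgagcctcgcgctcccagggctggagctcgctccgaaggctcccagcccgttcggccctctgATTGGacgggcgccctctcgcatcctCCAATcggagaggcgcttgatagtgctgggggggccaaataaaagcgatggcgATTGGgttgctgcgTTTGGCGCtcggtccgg
Ezh1, chr11:101226444-101226643, minus strand: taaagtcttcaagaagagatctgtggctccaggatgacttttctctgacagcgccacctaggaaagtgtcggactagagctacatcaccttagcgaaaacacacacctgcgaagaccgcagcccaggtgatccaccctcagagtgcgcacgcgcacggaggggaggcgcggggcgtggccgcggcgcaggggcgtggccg
Kmt5a, chr5:124439750-124439949, plus strand: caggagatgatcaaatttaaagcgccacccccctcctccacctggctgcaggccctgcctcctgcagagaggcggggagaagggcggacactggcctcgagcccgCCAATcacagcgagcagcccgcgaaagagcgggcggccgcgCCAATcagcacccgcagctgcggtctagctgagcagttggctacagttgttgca

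In this stretch Ezh2 held 3 CCAAT matches and 1 E2F-type match, which begins at base 4 after the start. The Kmt5a stretch held 2 CCAAT matches, and the Ezh1 stretch held none of these letters. Outside the printed stretch, the window of 300 bases of this Kmt5a start also held CHR letters and further CCAAT matches. The CHR match begins at base 27 after the start, and the CCAAT matches begin at -223 and -191 from it. Of the 40 members 31 had a RefSeq window of 300 bases, 39 windows in all. E2F-type letters were in 2 of the 39 windows (5.13%, Ezh2 and Kmt5c) against 1.84% of 32851 windows of the same length. CHR letters were in 12.8% of members' windows against 19.2%, and CCAAT in 35.9% against 37.4%. These matches are letters in a window and say nothing of binding.

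**Figure D2:**
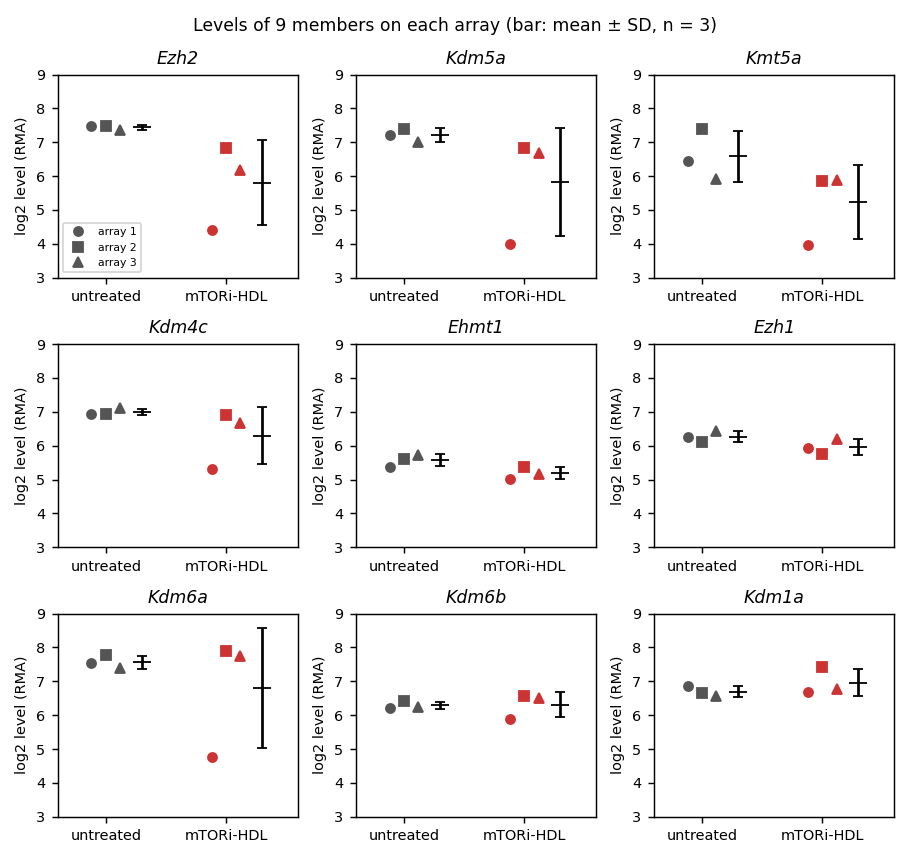
Log2 levels of 9 members on each array. Symbols give the array number within each group, by which the labels state no pairing, and the bar is the mean ± SD (n = 3). Ezh2, Kdm5a, Kmt5a, Kdm4c and Ehmt1 do not overlap between groups; for Kdm6a only mTORi-HDL 1, at 4.76, lies below the untreated arrays.

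Neither eraser of H3K27 separated the groups over all arrays. Kdm6a (UTX), an X-linked demethylase of H3K27, read 7.55, 7.77 and 7.39 on untreated arrays, 7.90 and 7.75 on mTORi-HDL 2 and 3, and 4.76 on mTORi-HDL 1. The outlying array alone set the sign of its mean change, -0.77 ± 0.79 over all arrays and 0.25 ± 0.23 without it (SE; adjusted p = 0.890 and 0.901). Kdm6b (JMJD3), the H3K27 demethylase known to be induced in inflammatory macrophages, read 6.22, 6.42 and 6.24 on untreated and 5.88, 6.56 and 6.50 on treated arrays. Its groups overlapped, with a log2 fold change of 0.02 ± 0.29 (95% interval -0.65 to 0.69). Without mTORi-HDL 1 it was 0.24 ± 0.21 (adjusted p = 0.900), and the 2 treated arrays then lay above the untreated ones. A dimmer probe set of Kdm6b had a log2 fold change of 0.59 (adjusted p = 0.894), so the pair differed in size and not in sign.

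All 8 members on the H3K4 writing side, Wdr5 included, had lower means in treated samples, 0 of them without overlap and 0 at an unadjusted p under 0.05. The median of their log2 fold changes was -0.35, and -0.11 with 6 lower once mTORi-HDL 1 was left out. Kmt2a (MLL1), a writer at active promoters, read 6.79, 7.02 and 6.94 on untreated and 5.27, 7.49 and 6.12 on treated arrays. The treated values thus lay on both sides of the untreated ones, with a change of -0.63 ± 0.53, or -0.12 ± 0.40 without the outlying array. Kmt2d (MLL4), a writer at enhancers, read 5.53, 5.63 and 5.71 on untreated and 5.08, 5.55 and 5.39 on treated arrays, where mTORi-HDL 2 overlapped by a narrow margin. Its change was -0.28 ± 0.26, with a 95% interval of -0.89 to 0.32, and -0.15 ± 0.21 without mTORi-HDL 1. Kmt2b and Kmt2c, close relatives of these enzymes, had changes of -0.54 and -0.48 over all arrays and of -0.05 and 0.21 without mTORi-HDL 1, on which they read 3.53 and 4.72. Setd1a and Setd1b, which write most promoter H3K4 trimethylation, had changes of -0.30 ± 0.28 and -0.40 ± 0.31, and of -0.21 and -0.18 without it. Wdr5, the scaffold subunit that all these complexes share, read 5.62, 4.80 and 5.45 on untreated and 4.71, 4.98 and 5.38 on treated arrays, and the groups overlapped. Its change was -0.27 ± 0.33 (adjusted p = 0.897), and -0.11 ± 0.31 without mTORi-HDL 1. Setd7, a monomethyltransferase of H3K4 known from trained monocytes, read 5.11, 4.75 and 4.54 on untreated and 3.998, 5.67 and 4.52 on treated arrays. Its highest and its lowest value were both on treated arrays, and its change was -0.07 ± 0.45 with and 0.29 ± 0.38 without mTORi-HDL 1.

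Erasers of H3K4 had 4 lower and 2 higher means of 6, and 3 of each without mTORi-HDL 1. Kdm5a, a JmjC demethylase of H3K4, read 7.22, 7.40 and 6.995 on untreated and 3.99, 6.82 and 6.68 on treated arrays. The groups did not overlap, though mTORi-HDL 2 and 3 lay far nearer to the lowest untreated array than mTORi-HDL 1 did. The untreated SD was 0.20. Its log2 fold change was -1.38 ± 0.72 (adjusted p = 0.890) and -0.46 ± 0.23 without mTORi-HDL 1 (adjusted p = 0.778; 95% interval -1.002 to 0.09). Kdm5c, its X-linked relative, read 7.11, 6.47 and 7.34 on untreated and 5.35, 7.69 and 7.14 on treated arrays, with a change of -0.24 ± 0.60 that became 0.45 ± 0.33. Kdm5b, another JmjC eraser of this mark, read 5.38, 5.91 and 5.51 on untreated and 5.51, 5.08 and 5.75 on treated arrays. Its groups overlapped, with a change of -0.15 ± 0.30, or -0.18 ± 0.30 without mTORi-HDL 1. Kdm5d, the Y-linked relative, read 2.14, 1.82 and 3.10 on untreated and 3.05, 2.22 and 2.33 on treated arrays, under the lower quartile of all genes on each array (3.12 to 3.68). Its change was 0.18 ± 0.41, or -0.08 ± 0.39 without mTORi-HDL 1. Kdm1a (LSD1), the flavin-dependent eraser of H3K4, read 6.88, 6.65 and 6.56 on untreated and 6.70, 7.42 and 6.77 on treated arrays. It was among the few members with a higher mean, by 0.27 ± 0.30 and, leaving out the outlying array, by 0.40 ± 0.27 (adjusted p = 0.891 and 0.851), and the groups overlapped. Its relative Kdm1b had a change of -0.31 ± 0.42, or 0.05 ± 0.33.

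Among writers of H3K9, Ehmt1 (GLP) read 5.37, 5.59 and 5.73 on untreated and 5.03, 5.36 and 5.17 on treated arrays. The gap between the groups was the difference between 5.36 and 5.37, and on mTORi-HDL 1 it lay -0.03 residual SD from the line of that array on the other 5. Its change was -0.38 ± 0.26 (adjusted p = 0.890), and -0.30 ± 0.23 without that array (adjusted p = 0.876). Ehmt2 (G9a), the partner of Ehmt1 in 1 complex, read 5.17, 5.24 and 4.56 on untreated and 3.39, 5.92 and 4.23 on treated arrays. The treated values enclosed the untreated ones, and the change was -0.47 ± 0.61, or 0.09 ± 0.50.

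Erasers of H3K9 had 4 lower and 3 higher means of 7, with a median change of -0.08, and 3 lower and 4 higher without mTORi-HDL 1, with a median of 0.18. Kdm4c, which removes methyl groups from H3K9 and H3K36, read 6.94, 6.94 and 7.10 on untreated and 5.32, 6.90 and 6.66 on treated arrays. The groups did not overlap, and mTORi-HDL 2 lay close to the untreated values. Its change of -0.70 ± 0.43 became -0.21 ± 0.22 without mTORi-HDL 1 (adjusted p = 0.890 and 0.923). Its relatives Kdm4a, Kdm4b and Kdm4d had changes of 0.02, -0.08 and 0.43 over all arrays. Leaving out mTORi-HDL 1 gave -0.06 for Kdm4a, which turned its sign, and -0.40 for Kdm4b. Kdm4d, the largest mean increase of any member, read 3.65, 3.74 and 3.50 on untreated and 4.56, 3.87 and 3.74 on treated arrays, so that the groups met at 3.74. Its change without mTORi-HDL 1 was 0.18 ± 0.21. Kdm3a, an H3K9 demethylase known as a hypoxia-inducible gene, read 6.24, 6.54 and 5.90 on untreated and 5.76, 6.54 and 6.70 on treated arrays. Kdm3b read 7.22, 7.37 and 6.87 on untreated and 5.42, 7.36 and 7.65 on treated arrays. Their changes were 0.11 ± 0.35 and -0.35 ± 0.58, and both were higher without mTORi-HDL 1, by 0.40 ± 0.26 and 0.35 ± 0.25 (adjusted p = 0.846 and 0.867). Kdm7a, a JmjC eraser of H3K9 and H3K27, read 6.71, 7.90 and 6.54 on untreated and 4.50, 7.42 and 7.59 on treated arrays. Its change was -0.54 ± 0.83, and 0.46 ± 0.42 once mTORi-HDL 1 was left out, the highest of any member in that setting.

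Both writers of H3K36 had lower means over all arrays. Setd2, the enzyme of trimethylation that travels with RNA polymerase II, read 6.75, 7.27 and 7.68 on untreated and 4.33, 6.63 and 7.85 on treated arrays. Its log2 fold change was -0.97 ± 0.82, and 0.00 ± 0.43 without mTORi-HDL 1 (95% interval -1.03 to 1.04). Nsd1, a dimethyltransferase, read 7.46, 8.16 and 7.20 on untreated and 5.87, 7.24 and 7.31 on treated arrays. Treated arrays 2 and 3 lay within the untreated range, and its change was -0.80 ± 0.47, or -0.34 ± 0.32. The H3K36 erasers Kdm2a and Kdm8 had changes of -0.89 ± 0.50 and 0.05 ± 0.26, and of -0.35 and 0.11 without that array.

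Kmt5a (SET8), which writes monomethylation of H4K20 and is known to cycle with cell division, had the third largest decrease. It read 6.44, 7.39 and 5.91 on untreated and 3.97, 5.85 and 5.88 on treated arrays. The groups did not overlap, but mTORi-HDL 2 and 3 lay only just below the lowest untreated array, and the untreated SD was 0.75. Its change was -1.35 ± 0.61 (unadjusted p = 0.0598, adjusted p = 0.890) and -0.72 ± 0.42 without mTORi-HDL 1 (adjusted p = 0.838). Kmt5b and Kmt5c, which add further methyl groups to H4K20, had changes of -0.08 ± 0.31 and 0.22 ± 0.35. Both signs turned without mTORi-HDL 1, to 0.18 ± 0.21 and -0.04 ± 0.29. Kmt5c read 4.74, 5.36 and 5.50 on untreated and 5.94, 5.11 and 5.22 on treated arrays, so that only mTORi-HDL 1 was above the untreated range. Dot1l, the writer of H3K79, read 5.94, 6.36 and 5.61 on untreated and 5.46, 6.10 and 5.98 on treated arrays, a change of -0.12 ± 0.32 with overlapping groups. Without mTORi-HDL 1 the sign turned, to 0.07 ± 0.28.

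Of the other SET-domain members, Kmt2e (MLL5) read 8.04, 8.52 and 8.40 on untreated and 4.88, 8.15 and 8.38 on treated arrays. On mTORi-HDL 1 it lay -3.44 from the untreated mean, the largest such gap of any member, and without that array its change of -1.18 ± 0.87 was -0.06 ± 0.24. Setd3, a histidine methyltransferase of actin, had a change of -0.05 ± 0.44, and of 0.41 ± 0.28 without mTORi-HDL 1. Setd4, Setd5 and Setd6 had changes of 0.07, -0.50 and -0.66 over all arrays. Without mTORi-HDL 1 these were -0.03, 0.06 and -0.39, and the untreated values of Setd6 ranged from 5.17 to 7.19.

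**Figure D3:**
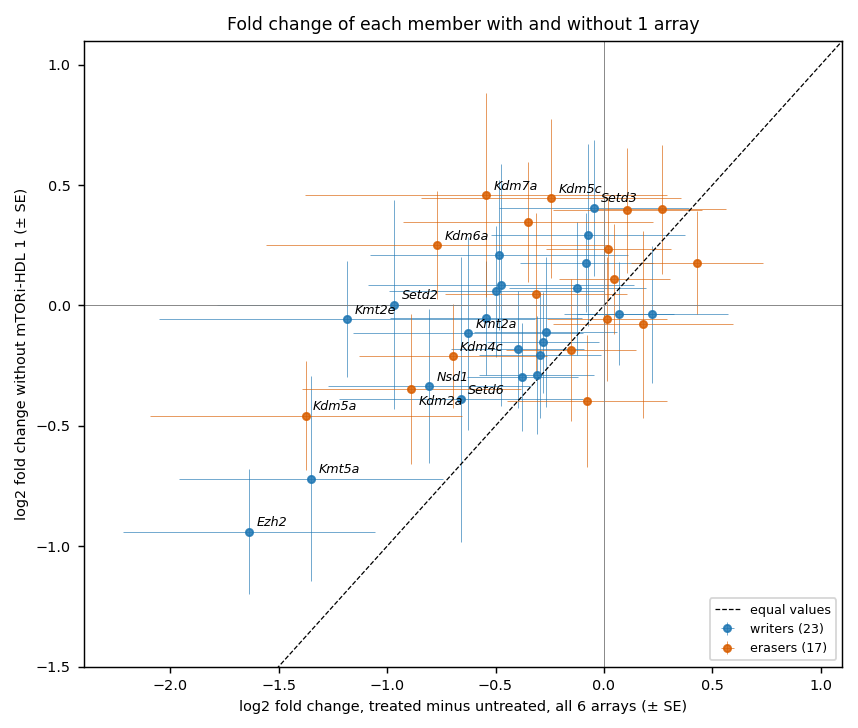
Each point is 1 of 40 members; the x axis is the log2 fold change over all 6 arrays and the y axis that without mTORi-HDL 1 (bars: SE), with the dashed line at equal values. The median size of the fold change is 0.33 on the x axis and 0.21 on the y axis, where Ezh2 (-0.94) and Kmt5a (-0.72) are lowest.

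Several members read lower on mTORi-HDL 1 than its line over all genes gave for probe sets of their brightness. The line of that array over all genes gave 6.00 for Ezh2, where 4.41 was read, a residual of -1.76 SD. Residuals were -2.19 SD for Kdm5a, -2.03 for Kmt2e, -1.96 for Setd2 and -1.75 for Kmt5a. Of the 40 members 28 lay below that line, beside 49.0% of all genes. Kmt5c and Kdm1a lay furthest above it, by 1.15 and 0.91 SD. The array had the lowest of 6 values for 30 of the 40 members (75%) and for 23.4% of all genes. Over mTORi-HDL 2 and 3 alone, both arrays lay below the untreated mean for 12 members (30%, beside 34.8% of all genes) and both above it for 13 (32.5%, beside 27.5%). Replicate spread was wider in treated samples, with an SD of 0.17 to 1.96 over members (median 0.67) against 0.08 to 1.11 in untreated ones (median 0.27). The 95% interval of a member's log2 fold change without mTORi-HDL 1 reached 0.50 to 1.41 either side (median 0.65), unadjusted for the number of genes. With these 5 arrays, changes smaller than that did not differ from 0 even before adjustment. The adjusted threshold is stricter: Ezh2, at -0.94 without mTORi-HDL 1, had an adjusted p of 0.451 (limma).

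**Figure D4:**
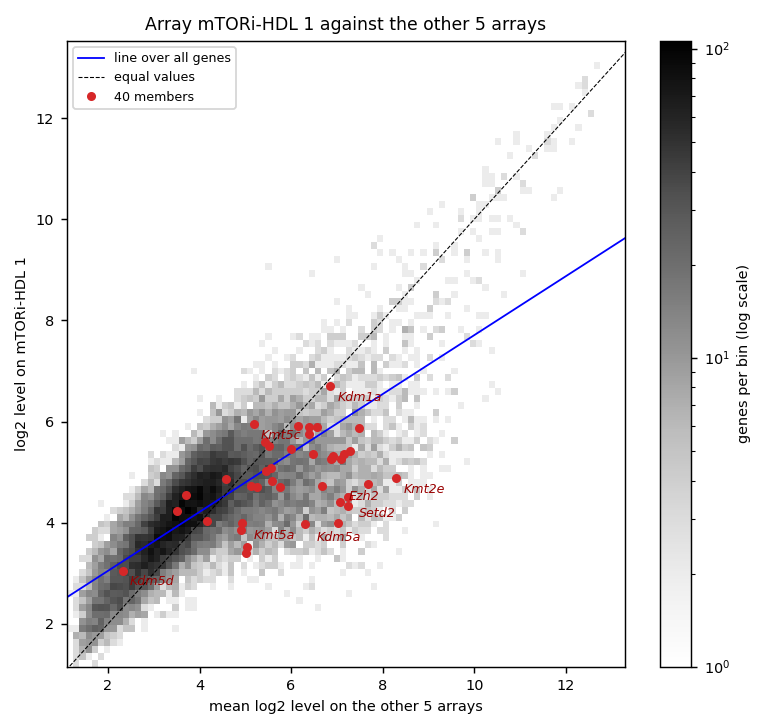
Log2 level on mTORi-HDL 1 (y axis) against the mean of the other 5 arrays (x axis) for all genes (grey, genes per bin on a log scale) with the line over all genes in blue and the 40 members in red. Ezh2, Kdm5a, Kmt2e, Setd2 and Kmt5a lie well below the line, and Kdm1a and Kmt5c above it.

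Lower means were more frequent on the writers' side than among erasers. That side also holds Wdr5 and the 5 other SET-domain members, such as Setd3. The 23 genes on the writers' side had 21 lower means and a median change of -0.40, and the 17 erasers had 10 lower means and a median of -0.15. Without mTORi-HDL 1 these were 15 lower with a median of -0.06, and 7 lower with a median of 0.11. On mTORi-HDL 2 and 3 the writers' median lay at -0.09 and -0.14 from the untreated mean and that of the erasers at 0.20 and 0.15, where untreated arrays spanned -0.10 to 0.16 and -0.13 to 0.13. The difference between the sides was not tested. The log2 ratio within an array was also compared for 6 further pairs of paralogues (Ehmt1 to Ehmt2, Kdm1a to Kdm1b, Kdm6a to Kdm6b, Kdm3a to Kdm3b, Kmt5b to Kmt5c and Setd1a to Setd1b). In an exact two-sided permutation test over arrays their p ran from 0.2 to 1 and adjusted p from 0.7 to 1. The smallest possible p is 0.1, with 3 against 3 and with 2 against 3 arrays. No pair could thus reach 0.05, and the test cannot decide whether a ratio differed. Without mTORi-HDL 1 their p ran from 0.4 to 0.9, and the difference for Kdm6a to Kdm6b, -0.79 over all arrays, was 0.02.

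Partner genes that are not members came from lists of complexes, and 0 of them passed an adjusted p of 0.05 in limma's test with or without mTORi-HDL 1. Of 13 other PRC2 subunits and cofactors 11 had lower means (median -0.39; without mTORi-HDL 1, 8 lower and median -0.11). Eed, the subunit that reads H3K27 trimethylation, was the 1 of the 13 with an unadjusted p under 0.05 in limma's test. At that p 3.07% of all genes were lower, and 3.51% without mTORi-HDL 1, where Eed was again the 1 of 13. Eed, as Ezh2, lay lower without overlap, the 1 of the 13 to do so. This share was 5.53% over all genes, and 12.5% without mTORi-HDL 1. Eed read 8.39, 8.10 and 8.13 on untreated and 7.69, 6.78 and 7.70 on treated arrays. Its log2 fold change was -0.82 with and -0.97 without mTORi-HDL 1 (limma, adjusted p = 0.890 and 0.552). Suz12, the third core subunit, read 7.65, 7.53 and 8.02 on untreated and 3.98, 7.71 and 7.20 on treated arrays, and its groups overlapped. Its log2 fold change was -1.43, and -0.28 without mTORi-HDL 1.

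Of 14 partners of the H3K4 writers 12 had lower means (median -0.65; 11 and -0.19 without mTORi-HDL 1). Paxip1, a subunit of the complexes of Kmt2c and Kmt2d, read 6.12, 6.37 and 5.93 on untreated and 4.08, 5.46 and 5.50 on treated arrays, all lower. Its change was -1.13, and -0.66 without that array (limma, adjusted p = 0.890 and 0.598). Paxip1 was the 1 of the 14 at an unadjusted p under 0.05 in limma's test, and the 1 lower without overlap. Over all genes these shares were 3.07% and 5.53% lower. Without mTORi-HDL 1 Paxip1 was again the 1 lower gene at that p, beside 3.51% of all genes. Ncoa6 was then the 1 higher gene (change 0.61), beside 3.47%. Ash2l, another shared subunit, had changes of -0.65 and -0.19. Of 13 partners and readers of H3K9 methylation 11 had lower means (median -0.56), and 7 did without mTORi-HDL 1 (median -0.08). Over all arrays 3 of the 13 lay lower without overlap, as did 5.53% of all genes. These were Uhrf1, which couples H3K9 methylation to maintenance of DNA methylation (change -1.61, and -1.40 without mTORi-HDL 1), and the heterochromatin proteins Cbx3 (-1.38 and -0.75) and Cbx1 (-0.72 and -0.54). The maintenance DNA methyltransferase Dnmt1 read 8.19, 7.57 and 8.08 on untreated and 4.95, 6.95 and 7.67 on treated arrays, which overlapped. The H3K36 writer Nsd2 was lower on every treated array (7.46, 7.20 and 7.61 on untreated, 5.04, 6.75 and 6.90 on treated arrays), and Aff1, an elongation factor tied to Dot1l, higher (6.29, 5.41 and 6.26 against 6.73, 7.20 and 6.62). Their changes were -1.19 and 0.86 (adjusted p = 0.890 each), and -0.60 and 0.92 without mTORi-HDL 1.

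Of 13 partners and readers of H3K36 and H3K79 methylation 10 had lower means (median -0.15), and 4 did without mTORi-HDL 1 (median 0.12). Over all arrays 2 of these 13 lay lower and 1 higher without overlap, beside 5.53% and 5.37% of all genes. Of 8 genes of DNA methylation and its removal 4 had lower means (median 0.03), and 3 did without mTORi-HDL 1 (median 0.04). In the other lists an unadjusted p under 0.05 was met by 1 lower gene each among 15 partners of Kdm1a (Mta1), 9 arginine methyltransferases (Prmt1) and 15 genes that supply methyl donor and cofactors (Ahcy), and by 0 among 17 PRC1 subunits and 11 other JmjC proteins, beside 3.07% of all genes. Without mTORi-HDL 1 Mta1 and Prmt1 were again under 0.05 and Ahcy was not, while Mtrr of the same list was, with a higher mean. Ahcy, which clears the by-product of methylation, read 5.07, 5.65 and 6.65 on untreated and 3.79, 5.22 and 4.23 on treated arrays. Among 25 other lysine methyltransferases 9 had lower and 16 higher means (8 and 17 without mTORi-HDL 1), and Nsd2 was the 1 with an unadjusted p under 0.05.

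Markers of dividing cells and of T cells had lower means in treated samples, as had Ezh2 and Kmt5a, both known to be expressed in dividing cells. Of 29 cell cycle genes 28 had lower means and 22 lay lower without overlap, beside 41.8% and 5.53% of all genes. Their median was -2.48 on mTORi-HDL 1 and -0.98 and -1.14 on mTORi-HDL 2 and 3, and their summed log2 level was 12.54 to 13.07 on untreated and 10.52 to 11.87 on treated arrays. All 16 T cell markers had lower means, with medians of -2.70, -1.11 and -1.03 on the 3 treated arrays. Macrophage markers lay at 0.11, 0.76 and 1.21 on those arrays, with 15 of 19 higher. For B cells, 6 of 7 markers were lower and their summed level was 10.07 to 10.42 on untreated and 8.61 to 9.89 on treated arrays. Means of 10 of 12 fibroblast, 9 of 10 endothelial, 11 of 12 cardiomyocyte, 6 of 9 dendritic cell and 7 of 10 neutrophil markers were higher in treated samples. Without mTORi-HDL 1 these counts were 10, 6, 8, 7 and 4, so that 6 of 10 neutrophil markers were then lower. The part of these cells in the levels of Ezh2, Kmt5a and Eed was not tested.

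**Figure D5:**
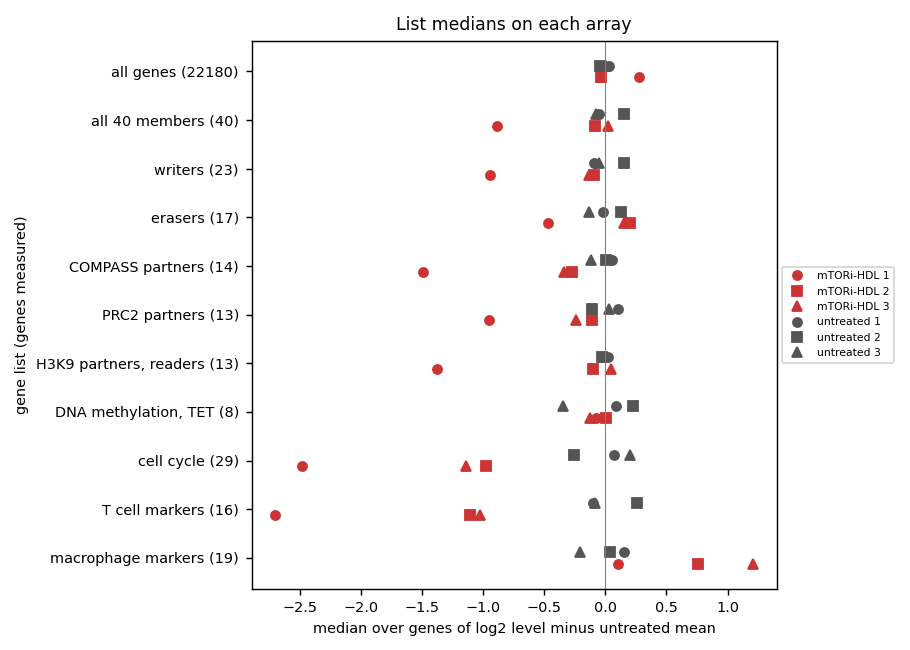
Median over the genes of a list of the log2 level minus the untreated mean (x axis), 1 symbol per array; the number of genes measured is in brackets. Members lie near 0 on mTORi-HDL 2 and 3, the cell cycle and T cell lists near -1, and macrophage markers above 0.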

How the data were processed

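The deposited table holds log2 expression values of 41345 probe sets on 6 arrays, made with RMA in Affymetrix Expression Console per the submitters' processing notes. RMA corrects background, quantile-normalizes and summarises probes. The sources used here do not give the build or filters. Each array started from 15 ng of RNA, per the labels. Precision is limited by the 3 arrays per group.

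Probe sets with exactly 1 symbol in the platform annotation were kept (23521), the brightest of a gene by the mean of all arrays. The groups were fitted with limma 3.58.1 (R 4.3.3; lmFit and eBayes with group as the only term) over all 22180 genes, two-sided, with Benjamini-Hochberg adjustment, unfiltered, and tested on simulated data. The members and lists were chosen with earlier results of these data known. Of 300 distinct list genes 271 were measured. Members described with values on each array were those without overlap between groups or at an unadjusted p under 0.05, the 5 largest changes per direction, the 5 brightest, and a panel of known enzymes; others and list genes beyond the 4 smallest p per list were chosen after their values were seen. Promoter windows came from RefSeq (GRCm38.p6). Alternatives were other normalizations, a brightness filter, trend and robust moderation, array weights, a replicate block, each array left out, and other probe-set rules. Quantile normalization without mTORi-HDL 1 was added after seeing the data.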

Additional observations from a re-analysis of the deposited data

How the results depend on the processing

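No member passed the adjusted threshold under any setting run, and the lowest adjusted p of a described member was 0.371 (limma), for Ezh2. Its log2 fold change ran from -2.14 to -0.94. Ehmt1, Ezh2, Kdm1a, Kdm4c, Kdm4d, Kdm5a, Kmt2a, Kmt2d, Kmt2e, Kmt5a, Nsd1 and Wdr5 kept their sign under every setting run.

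Signs turned in these settings. Median centring left 3 of 40 members without overlap, beside 11.4% of all genes, and 35 lower means, with Kdm6b -0.051. Quantile normalization gave Dot1l 0.078, Ezh1 0.015 and Kdm5b 0.085. Cyclic loess gave a median of -0.10 and 26 lower means, with Dot1l 0.19, Ezh1 0.052, Kdm3b 0.14, Kdm5b 0.045, Kdm5c 0.24 and Kdm5d -0.0017. Array weights, which put mTORi-HDL 1 at 0.149, gave 1 gene past the threshold, a median of -0.068 and 24 lower means, with Dot1l 0.065, Kdm3b 0.30, Kdm5c 0.28, Kdm5d -0.087, Kdm6a 0.12, Kmt5c -0.0019 and Setd7 0.17. Leaving out mTORi-HDL 1 and then quantile normalizing left 9 of 40 members without overlap, beside 22.5% of all genes. The median was then -0.033, with Dot1l 0.080, Ehmt2 0.083, Kdm3b 0.35, Kdm5c 0.45, Kdm5d -0.065, Kdm6a 0.24, Kmt5c -0.0033, Setd2 0.0039 and Setd7 0.28.

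With each array left out in turn, members without overlap numbered 8 to 10 of 40 (17.9% to 22.8% of all genes). Members at an unadjusted p under 0.05 (limma) numbered 1, 5 and 4 without mTORi-HDL 1, 2 and 3, beside 6.97%, 6.74% and 6.34% of all genes. Without untreated 1, 2 and 3 they numbered 0, 0 and 1, beside 3.18%, 2.95% and 2.77%. The members' median ran from -0.48 to -0.045. Members whose sign turned had these ranges: Dot1l from -0.30 to 0.072, Ehmt2 from -1.18 to 0.085, Kdm3a from -0.074 to 0.40, Kdm3b from -0.77 to 0.35, Kdm5b from -0.30 to 0.033, Kdm5c from -0.73 to 0.45, Kdm5d from -0.087 to 0.55, Kdm6a from -1.32 to 0.25, Kdm6b from -0.10 to 0.24, Kmt5c from -0.037 to 0.38, Setd2 from -1.76 to 0.0040 and Setd7 from -0.54 to 0.29. The cause of these shifts was not tested.

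The labels state no pairing of samples by replicate number. Deviations of same-numbered arrays from their group means correlated at 0.14, 0.13 and -0.02. With 3 arrays per group, 1 of them outlying, these values cannot decide whether samples were paired. With the replicate block 2 members were at an unadjusted p under 0.05, Ezh2 (0.0219) and Kmt5a (0.0394), both at an adjusted p of 0.847 (limma). These are 5% of members, beside 5.33% of all genes.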
